A study of Mus musculus with 14 samples.

Results

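Levels of 10 genes that mark T cells were followed in mouse epidermal cells: Cd3d, Cd3e, Cd3g, Cd247, Trat1, Thy1, Nkg7, Gzmb, Il2rb and Cd5. They were chosen by name as markers of the T cells that live in the epidermis, with earlier results of these data known. All 10 were found among the 17097 genes measured, on 16 of 45141 probe sets. Each gene was read on its probe set with the highest mean over the 14 arrays. The groups were bulge cells of mice with a G9a conditional knockout (bulge cKO, n = 4), bulge cells of wild-type mice (bulge WT, n = 3), interfollicular epidermal cells of G9a cKO mice (IFE cKO, n = 4) and interfollicular epidermal cells of wild-type mice (IFE WT, n = 3). All were 15 weeks old, with no treatment named, and all titles name homeostatic epidermis. G9a is a histone H3 lysine 9 methyltransferase, encoded by Ehmt2. The bulge is the stem cell niche of the hair follicle, and the interfollicular epidermis (IFE) is the sheet of skin between follicles. The sources used here give neither the promoter that drives Cre nor the way the cells were separated, nor do they state that replicates came from separate animals, so the p-values measure the spread between these samples.

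T cells recognise antigen through a receptor whose signals are carried into the cell by the CD3 chains and the zeta chain. Mouse epidermis holds a dense network of dendritic epidermal T cells, which carry a gamma delta receptor, sit between keratinocytes and respond to stressed or wounded epidermis. They depend on interleukin 15 and kill through granule proteases. Every value here is a log2 signal of a probe set, and levels of different probe sets are not comparable. In RNA of a whole cell population, fewer T cells and less T cell RNA per cell cannot be told apart. Nor can RNA of the same genes from other cells be told from that of T cells.

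The targeted gene separated by label on one of its probe sets, where Ehmt2 read 5.85 to 6.09 on the 8 cKO arrays and 9.51 to 9.78 on the 6 WT arrays. The other Ehmt2 probe set read 7.84 to 8.05 on all arrays. Median signals of the arrays lay between 5.76 and 5.84. On the first principal component of all genes, which holds 72.5% of the variance, bulge cKO replicates 2 and 3 lay at -6.90 and -11.3, nearer to the IFE arrays than the other bulge arrays (-48.2 to -36.7). IFE cKO replicates 2 and 3 lay at 23.3 and 22.98, nearer to the bulge arrays than the other IFE arrays (29.8 to 40.1). Cd34, a marker of bulge stem cells, read 6.65 and 6.53 on IFE cKO replicates 2 and 3 and 5.10 and 5.16 on IFE cKO replicates 1 and 4, against 5.0 to 5.12 on IFE WT arrays. Differences between cKO and WT of each member, on the probe set used for it, are given with and without these 4 arrays. So are the calls of genes named beside the members. With fewer cKO arrays a call can also be lost where the difference hardly moves.

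The members did not behave as one group. Cd5 was higher in cKO cells of both compartments on every array. Thy1 was far higher in IFE than in bulge cells. Cd3d, Cd3e, Cd3g and Nkg7 were highest on cKO replicates 2 and 3 of both compartments, and their differences between cKO and WT did not pass the test. Trat1, Gzmb and the Il2rb probe set used here varied little over the 14 arrays. On single arrays 11 genes of other organs, a rough guide to absent transcripts, read 3.54 to 6.96. All values of Trat1, Gzmb and this Il2rb probe set lay within that range, as did those of Cd3d, Cd3e, Nkg7 and Cd5. A flat reading there does not show that a gene was detected.

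**Figure D1:**
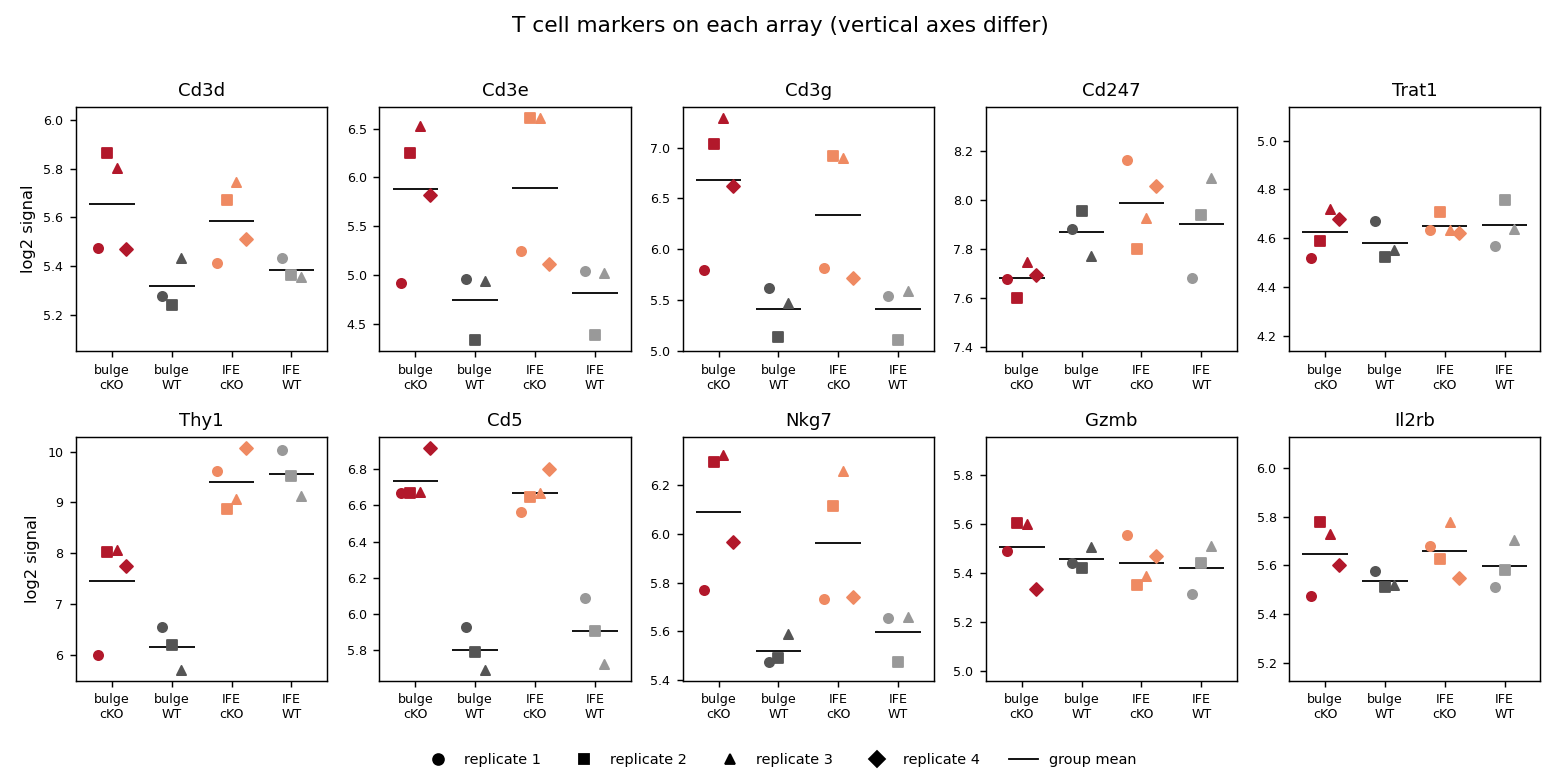
Log2 signal of the 10 members on each array (points), with the group mean as a line, in bulge cKO, bulge WT, IFE cKO and IFE WT cells. Cd5 is at 6.56 or above on all cKO arrays and at 6.09 or below on all WT arrays, and Thy1 is at 8.86 or above on all IFE arrays and at 8.07 or below on all bulge arrays.

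Cd5 is a surface receptor of T cells and of some B cells that dampens signals of the antigen receptor. In bulge cells it read 6.67, 6.67, 6.67 and 6.92 on the cKO arrays, against 5.93, 5.79 and 5.69 on the WT arrays. In IFE cells it read 6.56, 6.65, 6.67 and 6.80 on the cKO arrays, against 6.09, 5.91 and 5.73 on the WT arrays. The lowest cKO array lay above the highest WT array in both compartments, and replicates 2 and 3 did not lie apart from replicates 1 and 4.

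The bulge cKO mean of Cd5 was 6.73 ± 0.12 (SD, n = 4) and the bulge WT mean 5.80 ± 0.12 (SD, n = 3), a log2 difference of 0.93 (SE 0.09, 95% confidence interval 0.72 to 1.13, limma adjusted p = 0.000436). In IFE the means were 6.67 ± 0.10 in cKO and 5.91 ± 0.18 in WT cells, a log2 difference of 0.76 (SE 0.09, 95% confidence interval 0.56 to 0.97, limma adjusted p = 0.00217). The effect in IFE minus that in bulge was -0.17 (95% confidence interval -0.46 to 0.13, limma adjusted p = 0.582). Without cKO replicates 2 and 3 of both compartments the difference was 0.99 in bulge (adjusted p = 0.0232) and 0.77 in IFE. There the call was lost with fewer cKO arrays (adjusted p = 0.0942), though the difference hardly moved. Cd5 did not differ detectably between IFE and bulge in WT cells (0.10, 95% confidence interval -0.12 to 0.32). Cd6, a related T cell surface receptor, had a difference of 0.17 in bulge (limma adjusted p = 0.1).

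Cd5 was the only member that passed between cKO and WT. It made 1 of 10 members higher in bulge, where 1.98% of all genes tested were higher, and 1 of 10 in IFE, where 0.322% were higher. In bulge 4 members (Cd3d, Cd3g, Nkg7 and Cd5) had all cKO arrays above all WT arrays and 1 (Cd247) had them all below, against 10.5% and 8.05% of all genes. In IFE 4 members (Cd3e, Cd3g, Nkg7 and Cd5) had all cKO arrays above all WT arrays, against 5.01% of all genes. The median log2 difference over the 10 members was 0.45 in bulge, where that over all genes was 0.01, and 0.14 in IFE, where that over all genes was -0.01. The members were chosen with earlier results known, so these contrasts describe them only. None of the 10 differed between the compartments in the size of its cKO effect, where 0.105% of all genes did, and 1 (Thy1) had an unadjusted p under 0.05, as did 14.1% of all genes.

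**Figure D2:**
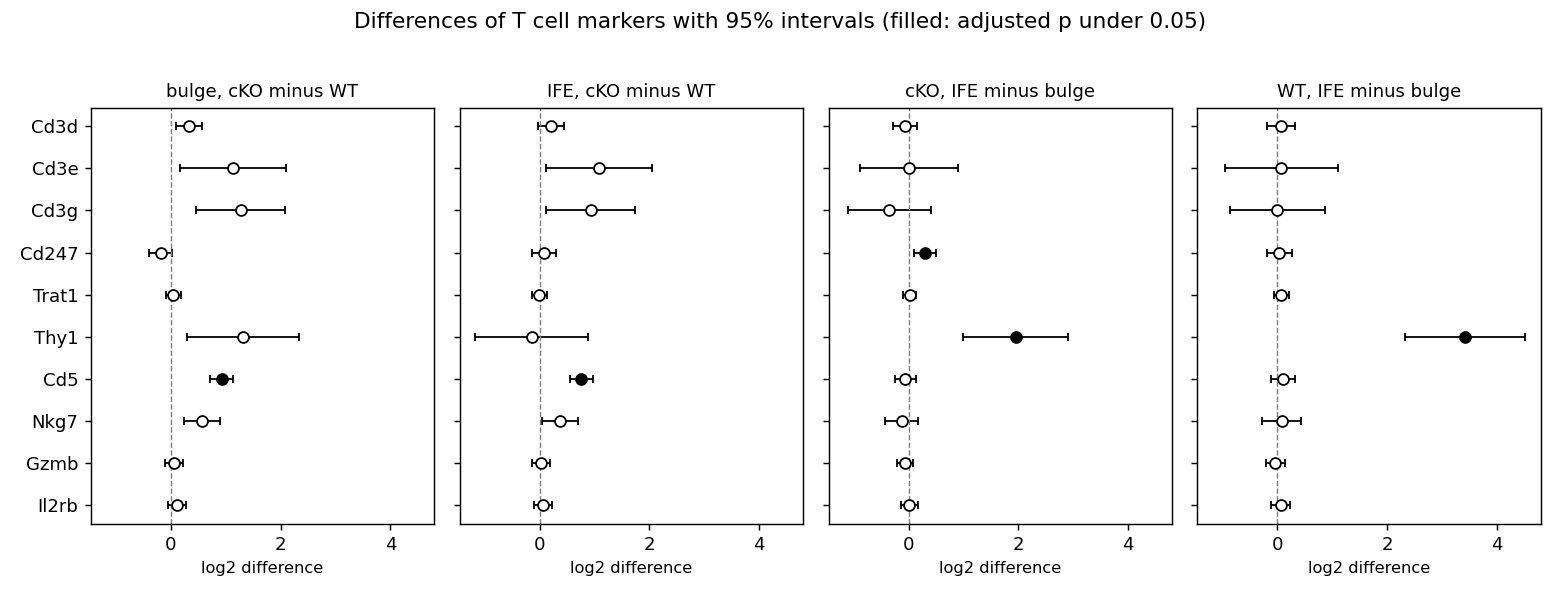
Log2 differences of the 10 members with 95% confidence intervals from limma, for cKO minus WT in bulge and IFE cells and for IFE minus bulge in WT and cKO cells. The intervals of Cd5 lie above 0 in both cKO comparisons, and those of Thy1 lie above 0 in both compartment comparisons.

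The CD3 gamma, delta and epsilon chains are the signalling subunits of the T cell receptor complex. Their genes are neighbours on chromosome 9 with 0 other annotated genes between Cd3g and Cd3d or between Cd3d and Cd3e. The windows around their start sites are shown beside that of Cd5, because the 3 CD3 genes varied together over the arrays and Cd5 did not follow them. Each runs from 250 bases before to 50 bases after the RefSeq start (GRCm38.p6), 5′ to 3′ on the strand of the gene. Capitals mark matches, on either strand, to the E-box CACCTG, the E-box CAGCTG and the ETS motif AGGAAG.
Cd3g (chr9:44980382-44980681, minus strand): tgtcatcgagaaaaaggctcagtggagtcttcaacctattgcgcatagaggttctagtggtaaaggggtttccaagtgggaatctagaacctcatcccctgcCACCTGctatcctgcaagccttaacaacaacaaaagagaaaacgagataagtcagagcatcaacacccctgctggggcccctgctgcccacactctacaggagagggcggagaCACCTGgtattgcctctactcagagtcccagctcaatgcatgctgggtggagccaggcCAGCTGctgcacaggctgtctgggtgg
Cd3d (chr9:44981536-44981835, plus strand): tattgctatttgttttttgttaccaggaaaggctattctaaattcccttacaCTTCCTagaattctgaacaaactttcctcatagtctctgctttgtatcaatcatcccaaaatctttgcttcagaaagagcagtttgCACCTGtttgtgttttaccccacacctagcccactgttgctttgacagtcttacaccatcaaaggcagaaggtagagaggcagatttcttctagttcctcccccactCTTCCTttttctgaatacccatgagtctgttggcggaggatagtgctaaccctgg
Cd3e (chr9:45009562-45009861, minus strand): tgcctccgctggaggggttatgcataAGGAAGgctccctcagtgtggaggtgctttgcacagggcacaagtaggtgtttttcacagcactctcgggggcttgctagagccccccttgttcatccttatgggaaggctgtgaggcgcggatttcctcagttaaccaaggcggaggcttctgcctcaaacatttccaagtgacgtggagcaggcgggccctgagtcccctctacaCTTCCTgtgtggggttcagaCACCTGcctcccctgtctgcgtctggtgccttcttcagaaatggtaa
Cd5 (chr19:10738925-10739224, minus strand): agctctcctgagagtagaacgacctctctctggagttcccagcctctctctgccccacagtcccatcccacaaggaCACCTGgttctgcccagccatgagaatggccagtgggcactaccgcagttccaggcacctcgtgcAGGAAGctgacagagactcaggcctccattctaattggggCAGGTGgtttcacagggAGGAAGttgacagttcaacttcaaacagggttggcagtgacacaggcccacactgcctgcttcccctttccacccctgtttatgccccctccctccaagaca

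All 4 windows hold CACCTG, as does that of Cd247, which makes 5 of the 8 members with a window, and 20.2% of 32851 windows hold it. AGGAAG is in 5 of the 8 and in 35.4% of all windows, and it is not among the letters of the Cd3g window. CAGCTG is in 1 of the 8 (Cd3g) and in 16.3% of all windows. The RUNX motif TGTGGT was in 3 of the 8 and in 16.8% of all windows, and TATAAA in 1 of the 8 and in 13.6%. No 2 matches of different motifs overlapped. A match describes these letters only.

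Cd3g, the gamma chain, read 5.79, 7.03, 7.29 and 6.62 on the bulge cKO arrays, against 5.62, 5.13 and 5.47 on the bulge WT arrays. It read 5.81, 6.91, 6.90 and 5.71 on the IFE cKO arrays, against 5.54, 5.10 and 5.58 on the IFE WT arrays. All cKO arrays lay above all WT arrays, and replicates 2 and 3 were the highest in both compartments. cKO minus WT was 1.28 in bulge (log2, SE 0.37, limma adjusted p = 0.0712) and 0.93 in IFE (SE 0.37, limma adjusted p = 0.379). Without cKO replicates 2 and 3 it was 0.80 in bulge and 0.35 in IFE (adjusted p = 0.357 and 0.989). Without bulge cKO replicate 1 the bulge difference was 1.58 and passed (adjusted p = 0.0219).

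Cd3e, the epsilon chain, read 4.92, 6.25, 6.53 and 5.82 on the bulge cKO arrays, against 4.96, 4.33 and 4.94 on the bulge WT arrays. On IFE cKO arrays it read 5.25, 6.61, 6.61 and 5.12, against 5.04, 4.38 and 5.02 on IFE WT arrays. The groups overlapped in bulge, where cKO replicate 1 read as the WT arrays did, and not in IFE. cKO minus WT was 1.13 in bulge (log2, SE 0.44, limma adjusted p = 0.139) and 1.08 in IFE (SE 0.44, limma adjusted p = 0.388), and without cKO replicates 2 and 3 it was 0.63 in bulge and 0.37 in IFE. On WT replicate 2 of either compartment Cd3e and Cd3g were at their lowest.

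Cd3d, the delta chain, covered a narrower range. It read 5.47, 5.86, 5.80 and 5.47 on the bulge cKO arrays, against 5.28, 5.24 and 5.43 on the bulge WT arrays. On IFE cKO arrays it read 5.41, 5.67, 5.75 and 5.51, against 5.43, 5.36 and 5.35 on IFE WT arrays. Its differences were 0.33 in bulge (limma adjusted p = 0.0896) and 0.20 in IFE (limma adjusted p = 0.537). Without cKO replicates 2 and 3 they were 0.15 in bulge (adjusted p = 0.542) and 0.08 in IFE. Without bulge cKO replicate 4 the bulge difference was 0.40 and passed (adjusted p = 0.0358).

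In WT cells no difference between the compartments was detectable for the 3 chains: IFE minus bulge was 0.00 for Cd3g (95% confidence interval -0.87 to 0.87), 0.07 for Cd3e (-0.96 to 1.10) and 0.06 for Cd3d (-0.19 to 0.31). These intervals leave room for differences of up to about 1 log2 unit for Cd3e and Cd3g. All WT values of the 3 chains (4.33 to 5.62) also lay within the range of the genes of other organs. They do not show that the chains were detected in WT cells.

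Cd247, the zeta chain, is covered by 4 probe sets that did not move together. The brightest read 7.68, 7.60, 7.75 and 7.69 on the bulge cKO arrays, against 7.88, 7.95 and 7.77 on the bulge WT arrays. It read 8.16, 7.80, 7.93 and 8.06 on the IFE cKO arrays, against 7.68, 7.94 and 8.09 on the IFE WT arrays. Its cKO minus WT difference was -0.19 in bulge and 0.08 in IFE (limma adjusted p = 0.253 and 0.842). Without cKO replicates 2 and 3 the difference was -0.18 in bulge and 0.21 in IFE. This probe set was 0.31 higher in IFE than in bulge cKO cells (limma adjusted p = 0.0233), a call lost with the other probe sets (-0.04 on the one with the largest interquartile range). The call also failed under 6 other settings, among them leaving out bulge cKO replicate 2 (adjusted p = 0.0574), IFE cKO replicate 1 (0.0684) or IFE cKO replicate 4 (0.0654).

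A dimmer Cd247 probe set showed the pattern of the CD3 chains. It read 4.48, 4.64, 4.81 and 4.63 on bulge cKO arrays, against 4.44, 4.37 and 4.37 on bulge WT arrays, and 4.51, 4.75, 4.74 and 4.39 on IFE cKO arrays, against 4.48, 4.22 and 4.40 on IFE WT arrays. Its differences were 0.25 in bulge and 0.23 in IFE, with limma adjusted p = 0.149 and 0.430 over all probe sets, and without cKO replicates 2 and 3 they were 0.17 in bulge and 0.08 in IFE. The remaining Cd247 probe sets (means 5.87 and 4.42) had -0.005 and 0.15 in bulge and -0.011 and 0.003 in IFE, and none of these passed. Trat1, an adaptor bound to the receptor complex, read 4.52 to 4.72 on bulge cKO and 4.52 to 4.67 on bulge WT arrays, and 4.62 to 4.71 on IFE cKO and 4.57 to 4.76 on IFE WT arrays. Its cKO minus WT differences were 0.05 in bulge and -0.005 in IFE. Without cKO replicates 2 and 3 they were 0.02 in bulge and -0.03 in IFE.

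**Figure D3:**
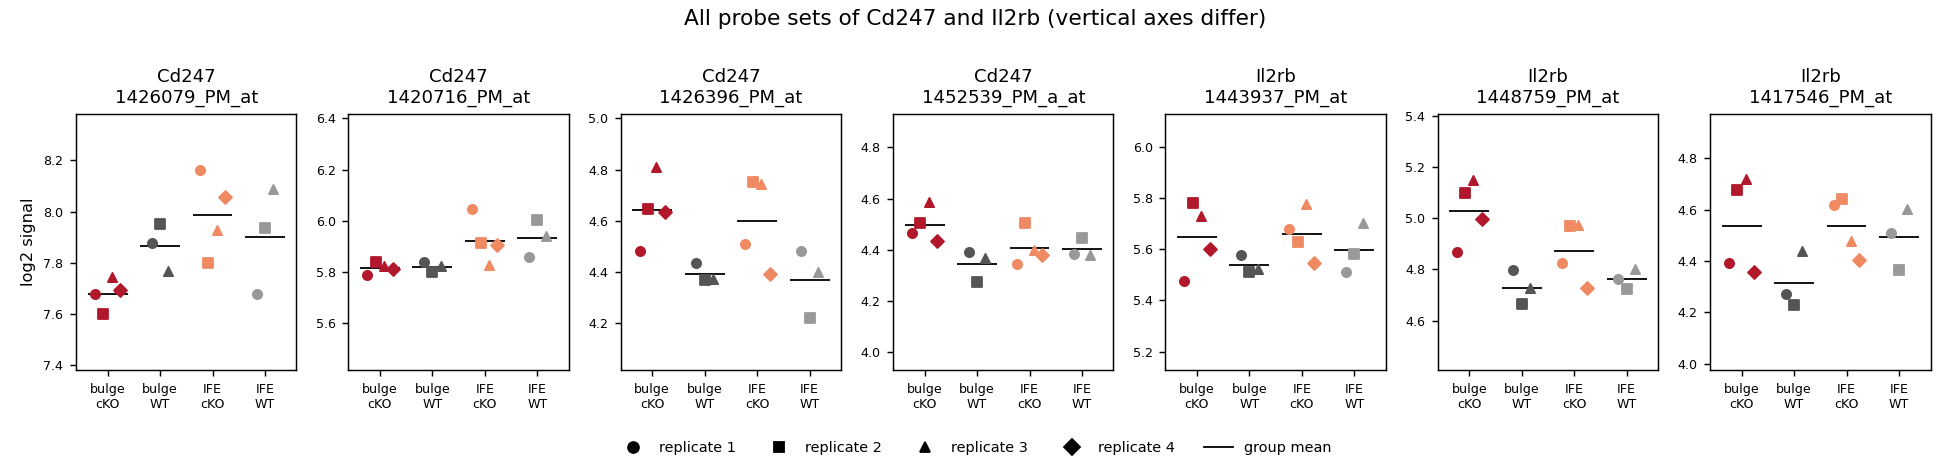
Log2 signal on each array of the 4 Cd247 and the 3 Il2rb probe sets, by group. The brightest Cd247 probe set (mean 7.86) does not share the high values of cKO replicates 2 and 3 that a dimmer one (mean 4.52) shows.

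Thy1 is a surface protein of mouse T cells that fibroblasts and other cells carry too. It read 5.99, 8.02, 8.07 and 7.76 on the bulge cKO arrays, against 6.54, 6.18 and 5.70 on the bulge WT arrays. It read 9.62, 8.86, 9.07 and 10.08 on the IFE cKO arrays, against 10.03, 9.52 and 9.12 on the IFE WT arrays. Every IFE array lay above every bulge array, and in bulge cKO replicate 1 lay among the WT arrays.

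In WT cells Thy1 averaged 9.55 ± 0.46 in IFE and 6.14 ± 0.42 in bulge (SD, n = 3 each), IFE minus bulge being 3.41 (log2, SE 0.50, limma adjusted p = 0.000275). In cKO cells it averaged 9.41 ± 0.55 in IFE and 7.46 ± 0.99 in bulge (SD, n = 4 each), a difference of 1.95 (SE 0.44, limma adjusted p = 0.00546). It was the 1 member of 10 higher in IFE among WT cells, where 16.6% of all genes were, and Thy1 and Cd247 were the 2 members higher in IFE among cKO cells, where 14.6% were. Thy1 was also the 1 member whose WT groups did not overlap (23.7% of all genes higher in this way), and Thy1 and Cd247 were the 2 among cKO cells (15%).

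Between cKO and WT, Thy1 had a difference of 1.32 in bulge (SE 0.47, limma adjusted p = 0.114) and -0.15 in IFE (SE 0.47, limma adjusted p = 0.956). The effect in IFE minus that in bulge was -1.46 (95% confidence interval -2.91 to -0.01, limma adjusted p = 0.351). Without bulge cKO replicate 1 the bulge difference was 1.81 and passed (adjusted p = 0.0109). Without cKO replicates 2 and 3 the differences were 0.73 in bulge and 0.30 in IFE, the effect in IFE minus that in bulge was -0.44, and IFE minus bulge in cKO cells was 2.98 (adjusted p = 0.00541). In bulge cells Thy1 was high on the arrays on which IFE genes were high: Dsg1a, a desmosomal cadherin of differentiating epidermis, read 5.68, 9.18, 8.81 and 7.79 on bulge cKO arrays, against 5.28 to 5.95 on bulge WT arrays. The part of this shift in the Thy1 difference was not tested.

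Other genes of T cells did not follow Thy1 as a group. Between bulge and IFE WT cells 16.6% of all genes (2846 of 17097) were higher in IFE, the share to set beside the counts of higher genes below. In either direction 5998 genes were called, so lower calls were frequent too. Of the leukocyte list, Arhgdib was the 1 of 11 that was higher in IFE than in bulge WT cells (3.40, limma adjusted p = 0.000128). Ptprc, which encodes CD45, read 3.79 to 4.00 in IFE and 3.98 to 4.07 in bulge WT cells, within the range of the genes of other organs. Of 8 fibroblast genes, 0 were higher and 1 was lower in IFE WT cells. Of 13 genes of gamma delta and skin-resident T cells, the chemokine receptors Ccr4 (1.23, limma adjusted p = 0.00171) and Ccr10 (0.24, limma adjusted p = 0.0029) were higher in IFE WT cells and the transcription factor Sox13 was lower (-0.78). All WT values of Ccr4, Ccr10 and Sox13 also lay within the range of the genes of other organs. Bcl11b, a transcription factor of T cells and of keratinocytes, was higher in IFE WT cells (0.84, limma adjusted p = 0.0097), as was Il15ra, the receptor chain that presents interleukin 15 (1.26, limma adjusted p = 0.000818).

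Nkg7, a granule membrane protein of cytotoxic lymphocytes, followed the CD3 chains. It read 5.77, 6.29, 6.32 and 5.97 on the bulge cKO arrays, against 5.47, 5.49 and 5.59 on the bulge WT arrays. On IFE cKO arrays it read 5.73, 6.12, 6.26 and 5.74, against 5.66, 5.47 and 5.66 on IFE WT arrays. The cKO arrays lay above the WT arrays in both compartments.

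Its log2 difference was 0.57 in bulge (SE 0.15, limma adjusted p = 0.0558) and 0.36 in IFE (SE 0.15, limma adjusted p = 0.395), and without cKO replicates 2 and 3 it was 0.35 in bulge and 0.14 in IFE. The bulge difference passed without bulge cKO replicate 1 (0.68, adjusted p = 0.0221) and without bulge cKO replicate 4 (0.61, adjusted p = 0.0346). Gzmb, the granule protease granzyme B, read 5.33 to 5.60 on bulge cKO and 5.42 to 5.51 on bulge WT arrays, and 5.35 to 5.56 on IFE cKO and 5.31 to 5.51 on IFE WT arrays. Its differences were 0.05 (95% confidence interval -0.11 to 0.21) and 0.02 (-0.14 to 0.18). Without cKO replicates 2 and 3 they were -0.04 in bulge and 0.09 in IFE.

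Il2rb, the receptor chain shared by interleukins 2 and 15, read 5.48 to 5.78 on bulge cKO and 5.51 to 5.58 on bulge WT arrays, and 5.55 to 5.78 on IFE cKO and 5.51 to 5.70 on IFE WT arrays. Its cKO minus WT difference was 0.11 in bulge and 0.06 in IFE (limma adjusted p = 0.380 and 0.861). Without cKO replicates 2 and 3 it was 0.0008 in bulge and 0.01 in IFE. A dimmer probe set read 4.87, 5.10, 5.15 and 5.0 on bulge cKO arrays, against 4.80, 4.66 and 4.73 on bulge WT arrays. Its difference was 0.30 in bulge, which passed over all probe sets (limma adjusted p = 0.0493), and 0.11 in IFE, which did not (0.664). The bulge difference was 0.20 without cKO replicates 2 and 3 and its call was lost (adjusted p = 0.369). The remaining Il2rb probe set (mean 4.48) had 0.22 in bulge (limma adjusted p = 0.2) and 0.04 in IFE (0.937). Without cKO replicates 2 and 3 its bulge difference was 0.06.

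The other T cell genes, in 4 lists of receptor signalling, skin-resident and gamma delta cells, cytotoxic molecules and alpha beta lineages, gave few calls. Of 58 listed genes 47 were measured, and the gamma delta receptor genes Trdc, Tcrg-C1, Tcrg-V5 and Trdv4 were not analysed here. In bulge, where 1.98% of all genes were higher in cKO cells, 2 of the 47 were higher and 0 lower. They were Sh2d2a, an adaptor of T cell activation (0.20, limma adjusted p = 0.0373), and Serpinb9, an inhibitor of granzyme B (0.36, limma adjusted p = 0.0248). Both calls were lost without cKO replicates 2 and 3, a setting with fewer cKO arrays. Sh2d2a was at 0.18 (adjusted p = 0.358) and Serpinb9 at 0.41 (adjusted p = 0.211), so neither difference moved far. In IFE 0 of the 47 passed in limma, where 0.322% of all genes were higher. An unadjusted p under 0.05 was found for 22 of the 47 in bulge, where 25.7% of all genes had one, and for 4 of the 47 in IFE, where 11% had one. Of the 13 gamma delta and resident genes, 8 had such a p in bulge and 1 in IFE. Cd7, a surface protein of T and NK cells, had 0.51 in bulge (limma adjusted p = 0.0616) and 0.27 in IFE (limma adjusted p = 0.521), and without cKO replicates 2 and 3 it had 0.28 in bulge and 0.14 in IFE. The alpha beta coreceptor gene Cd8a had 0.19 in bulge (limma adjusted p = 0.114) and Cd4 0.06 (0.459).

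High values on cKO replicates 2 and 3 were found for some of the T cell genes and for genes of other cells. Both replicates lay above replicates 1 and 4 for 7 members in bulge, 4 in IFE and 4 in both (Cd3d, Cd3e, Cd3g and Nkg7), and for 33.5%, 18.4% and 4.26% of all genes. In both compartments this held for 7 of 13 gamma delta and resident genes, 2 of 13 cytotoxic, 1 of 14 receptor signalling and 1 of 7 alpha beta lineage genes. It held for 4 of 11 leukocyte, 5 of 11 Langerhans and antigen presenting, 3 of 8 fibroblast, 0 of 5 B cell, 0 of 6 basal keratinocyte and 0 of 11 genes of other organs. These replicates were set apart with their values known, so the counts describe the arrays.

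Deviations from the group means over the 14 arrays were set beside the mean deviation of Cd3d, Cd3e, Cd3g and Cd247. This was done for 10793 genes outside the members with a highest group mean at or above the median of all values. The 8 genes most like that mean deviation were Hbb-b2, Ctsw, Fcer1g, Avil, Cd7, Vim, Hba-a1 and Srgn. Pearson's r, given as a description over arrays normalised together, was 0.99 for Hbb-b2, a beta globin chain of red cells, 0.96 for Ctsw, cathepsin W of cytotoxic lymphocytes, and 0.93 for Srgn, the granule proteoglycan serglycin. Cd247 itself had -0.37. Close below the 8 genes lay Klk7 (0.93), Spink5 (0.91) and Dsc1 (0.90), which are not blood cell genes, and further down the leukocyte gene Laptm5 (0.89). The likeness was thus not confined to genes of blood cells. Hbb-b2 read 6.43, 7.93, 8.18 and 7.12 on bulge cKO arrays, against 6.41, 5.81 and 6.30 on bulge WT arrays. On IFE cKO arrays it read 6.40, 7.80, 8.04 and 6.38, against 6.23, 5.69 and 6.30 on IFE WT arrays. Like Cd3e and Cd3g, it was highest on cKO replicates 2 and 3 and lowest on WT replicate 2. None of the 8 passed between cKO and WT in either compartment.

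**Figure D4:**
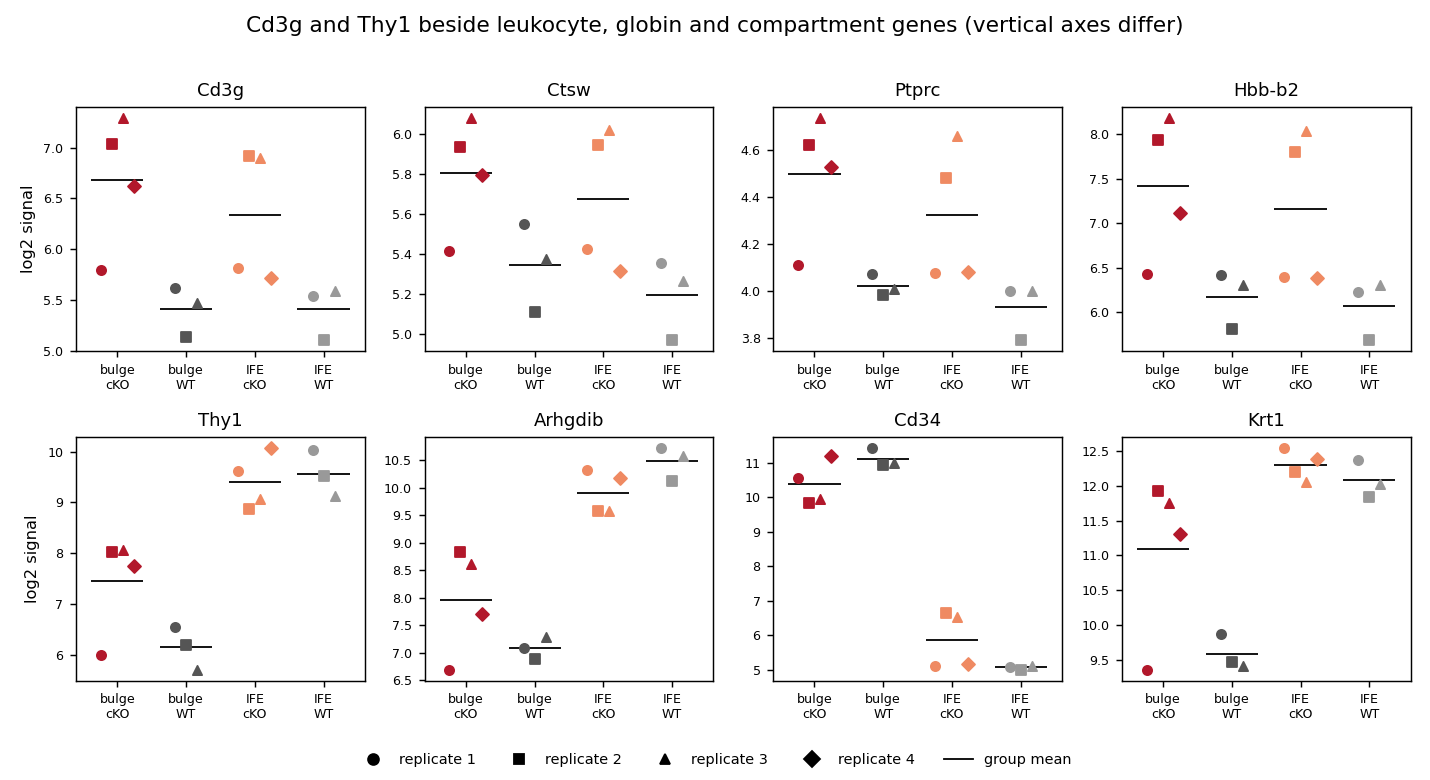
Log2 signal on each array of Cd3g with Ctsw, Ptprc and Hbb-b2, of Thy1 with Arhgdib, and of the compartment markers Cd34 and Krt1 (a keratin of differentiating epidermis), by group. Cd3g and Hbb-b2 share their highest arrays, cKO replicates 2 and 3, and Thy1 and Arhgdib are higher on every IFE array than on every bulge array.

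Marker lists of other cells were read beside the members. The mean of the 11 leukocyte genes ran from 5.68 to 6.27 on bulge cKO and from 5.52 to 5.68 on bulge WT arrays, and Cd53, a leukocyte tetraspanin, was the 1 of 11 that rose (0.90, limma adjusted p = 0.0239). That of the 11 Langerhans and antigen presenting genes ran from 6.52 to 7.11 on bulge cKO and from 6.15 to 6.31 on bulge WT arrays, and 4 of 11 rose, where 1.98% of all genes did: H2-Ab1 (2.35), H2-Eb1 (0.97), Cd74 (0.87) and H2-Aa (0.76), which act in antigen presentation on MHC class II. Cd207, which encodes langerin, had 0.56 (limma adjusted p = 0.125). The mean of the 8 fibroblast genes ran from 5.72 to 6.19 on bulge cKO and from 5.64 to 5.83 on bulge WT arrays, so the groups overlapped, and 0 of 8 passed in limma. Without cKO replicates 2 and 3 the calls of Cd53 (0.65, adjusted p = 0.237), H2-Ab1 (1.71, adjusted p = 0.178), H2-Eb1 (0.70), Cd74 (0.58) and H2-Aa (0.53) were lost. In IFE 0 genes of these 3 lists passed in limma between cKO and WT, where 0.322% of all genes were higher. The leukocyte, Langerhans and fibroblast lists held 3, 1 and 0 genes with an unadjusted p under 0.05 in IFE, where 11% of all genes had one, and 7, 8 and 3 in bulge, where 25.7% had one. Their part in the member differences was not tested.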

How the data were processed

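Amplified, biotin-labelled cDNA was read on Affymetrix arrays (protocols as in the labels). The authors deposited log2 values for each probe set, computed with RMA per the submitters' processing notes; its version is not stated there. RMA subtracts background and equalises the distributions of the arrays, which can narrow differences of dim probe sets, and the number of arrays limits the precision. All per-sample columns matched a sample. Of the probe sets, 28898 had 1 gene symbol, 551 several and 15692 none, and each of 17097 genes took its probe set with the highest mean.

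A mean per group was fitted to all 14 arrays with limma 3.58.1 in R 4.3.3 (lmFit, eBayes, residual degrees of freedom 10). Tests were two-sided, with Benjamini-Hochberg adjustment over all genes and a threshold of 0.05. Of simulated log2 changes of 1, 95.5% were recovered in bulge cKO against WT and 91% in IFE, with 12 and 11 false calls. These rates do not carry over to members with a wide spread. In bulge Cd3g (1.28, SE 0.37), Cd3e (1.13, SE 0.44) and Thy1 (1.32, SE 0.47) did not pass. A member without a call can therefore hold a difference of that size.

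The 10 members and 17 other lists (173 entries, 145 measured) were chosen with earlier results of these data known. All members are named, with up to 4 genes of smallest p per list and the 8 genes most like the CD3 chains. Dsg1a, Ptprc, Cd4 and Cd207 are named outside that rule where a member's result needed them. Klk7, Spink5, Dsc1 and Laptm5 are named outside it too, from the genes ranked below those 8. Ehmt2 is named as the targeted gene, and Cd34 and Krt1 for the position of the arrays between the compartments. Promoter windows came from RefSeq (GRCm38.p6) for 8 of 10 members, without Thy1 and Il2rb. Figures used matplotlib 3.10.9. Alternatives covered the normalisation, centring, the choice of probe set, leaving out dim probe sets, the variance model, array weights, the samples fitted, a replicate block and leaving out arrays.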

Additional observations from a re-analysis of the deposited data

Results flagged for a closer look

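In 3 of the 20 groups of 4 arrays tested, 1 array of a member lay far from the other 3, measured as its gap to the nearest array over the range of the group, where chance gives about 1 in 20. Thy1 read 5.99 on bulge cKO replicate 1, with the nearest of the other cKO arrays at 7.76, so this array lay among the bulge WT arrays. Cd5 read 6.92 on bulge cKO replicate 4, with the nearest at 6.67. Trat1 read 4.71 on IFE cKO replicate 2, with the nearest at 4.63, a gap that is small beside the differences of the other members.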

How the results depend on the processing

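The calls of Cd5 in bulge and of Thy1 between compartments held under every alternative run for them, with adjusted p from 4.09e-05 to 0.0232 for Cd5 in bulge, from 2.33e-05 to 0.00234 for Thy1 in WT and from 0.00345 to 0.0211 for Thy1 in cKO cells. The number of members called in bulge was 1, against 2 with an intensity trend and robust fitting together (Nkg7 added), 2 with a replicate block (Nkg7 added) and 6 with array weights (Cd3d, Cd3e, Cd3g, Thy1, Nkg7 and Cd5). Leaving out 1 array at a time gave 1 to 4, with 4 without bulge cKO replicate 1 and 3 without bulge cKO replicate 4. In IFE it was 1, and 0 without cKO replicates 2 and 3. For the difference of effects it was 0, and 1 with array weights (Thy1, -2.15, adjusted p = 0.0258). Between IFE and bulge cKO cells it was 2, and 1 with cyclic loess, with probe sets averaged per gene, with the probe set of largest interquartile range (Cd247 at -0.044), with a replicate block and, added after seeing the data, without bulge cKO replicates 2 and 3; leaving out 1 array gave 1 to 2. Over all genes the calls in bulge were 656, with 72 when only the groups compared were fitted and 5766 with array weights; in IFE they were 85, with 33 to 904. In the compartments they were 5998 in WT, with 4801 to 7032, and 5496 in cKO, with 4096 to 7924; for the difference of effects they were 18, with 0 to 2520. The labels do not say that replicate numbers mark shared animals. Over all genes, same-numbered arrays of bulge and IFE correlated at -0.57 to 0.15 in cKO cells, against -0.39 to 0.47 for other numbers. In WT cells they correlated at 0.04 to 0.25, against -0.25 to 0.14 for other numbers. The same-numbered IFE array correlated best for 0 of 4 bulge cKO and 2 of 3 bulge WT arrays. For Cd3e, Cd3g and Hbb-b2 the same numbers were highest among cKO and lowest among WT arrays in both compartments, so pairing is not settled. Leaving out cKO replicates 2 and 3 for the genes and probe sets named beside the members was added after seeing the data. The cause of these changes was not tested.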
